A study of Mus musculus with 20 samples.

Results

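The spleen of wild-type (WT) mice was compared with 4 other WT tissues in an mRNA bisulfite sequencing data set, at single cytosines. Of 32378 listed cytosines, 3098 had at least 20 reads in all 10 WT libraries and are called common sites. A further 906 had at least 20 reads in both spleen libraries and in no library of the other tissues, and are called spleen-only sites. Together these 4004 sites were 12.4% of the list and lay in 2023 genes (common) and 515 genes (spleen-only, with 254 sites given no gene). At the edge of the coverage rule, 186 common sites had exactly 20 reads in their shallowest WT library, and 192 sites outside it had 19. The groups were WT spleen, WT small intestine, WT liver, WT kidney and WT heart, with 2 libraries each, and the spleen of Nsun6 knockout (KO) mice, with 2 libraries, served as a background at the same sites. Per the methods, tissues came from female mice 8 weeks old, and the KO was made in C57BL/6J eggs by removing exons 3 and 4 of Nsun6. No agent or further allele is given for any group. Nothing in the labels or methods ties each library to an animal of its own, so the spread behind a p-value here may be technical. The main test for single sites took that spread from a trend with read depth and not from each site's own libraries.

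Bisulfite turns unmethylated cytosine into a base read as T, so that a cytosine still read as C counts as 5-methylcytosine (m5C). The m5C level of a site is its unconverted reads divided by its coverage, as a fraction. On mRNA, m5C is placed mainly by Nsun2, at cytosines followed by a G-rich stretch, and by Nsun6, at a CTCCA motif. The spleen filters blood and is rich in B and T lymphocytes and macrophages, and in mice its red pulp also forms red blood cells.

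Sites on which the results below turn, some high and some low in spleen, are shown first, since 3 kinds of sequence recur. Each window runs 5′ to 3′ on the strand of the transcript, was read from RefSeq's GRCm38 genome, and has the measured cytosine at its centre. Capitals mark that cytosine and, in the 2 named classes, the motif it opens: CTCCA, or CNGGG (a cytosine, any base and GGG). The first 3 are CTCCA sites of a spleen-only and of 2 common transcripts, all at 0 in KO spleen.
Ighg3 (chr12:113359705-113359725, minus strand): gcatgaggctCTCCAtaacca
Selenok (chr14:29973413-29973433, plus strand): cccagccctcCTCCAatggct
H2-Aa (chr17:34283189-34283209, minus strand): caggtggcacCTCCAgacacc
The next 3 are CNGGG sites, the spleen-only site of highest level and 2 common ones whose spleen levels lay below those of all 8 other WT libraries.
Nisch (chr14:31186622-31186642, minus strand): gtctgctcttCAGGGctgcag
Tcn2 (chr11:3917346-3917366, minus strand): taccactgctCTGGGaccagg
Cd81 (chr7:143067617-143067637, plus strand): ccctggcttgCAGGGccctgt
The last 5 are common sites of neither class that were unconverted in both spleen libraries.
Rela (chr19:5647573-5647593, plus strand): ggtgctttcgCaggagcatta
Ybx3 (chr6:131388160-131388180, minus strand): cccccggaccCcgcgcctaag
Rpl34 (chr3:130729122-130729142, minus strand): cccctggcaaCaggattgttt
Rpl23 (chr11:97781812-97781832, minus strand): ctgtgatcaaCtgtgcagaca
Use1 (chr8:71369163-71369183, plus strand): cagtcagcatCcgagctagac

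The spleen libraries carried transcripts of immune cell genes. The shares below are of reads over listed sites, and a site was listed only if the authors had passed it in at least 1 library. A gene read mainly in spleen could thus be listed through spleen itself, so these shares are a description. Reads over listed sites summed to 1993288 and 2660439 in spleen, against 1247930 to 3252220 in the 8 other WT libraries. Genes of a B cell and plasma cell list held 1.20% and 1.68% of those reads in spleen, against 0.00627% to 0.105% elsewhere, with 22 of the list's 40 genes having a listed site. Genes of a T cell and NK cell list, 24 of 41 listed, held 0.535% and 0.535% in spleen, against 0.00489% to 0.0951%. In whole tissue, fewer cells of a type and less RNA per cell cannot be told apart. The table gives no value under 10 reads, so a gene without a listed value may still have been read. Pancreas acinar genes had no listed value in either spleen library (5 of 22 listed), and liver genes held 0.0159% and 0.00267% of the spleen reads. The 2 spleen libraries differed in their reads from some of the lists. Erythroid genes, 21 of 40 listed, took 5.56% of the reads in spleen replicate 1 and 0.0737% in replicate 2, against 0.0934% to 0.725% elsewhere. Hba-a1, which encodes an alpha chain of haemoglobin, had 67679 reads over its 2 sites in replicate 1 and no listed value in replicate 2, and Alas2, the first enzyme of haem synthesis in red cells, had 18280 and 97. Neutrophil and mast cell genes, 4 of 20 listed, took 0.402% and 0.00977%, led by S100a9, a calcium-binding protein of neutrophils, with 6668 and 92 reads. The part of this difference in the m5C levels below was not tested, so each value is given per library.

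**Figure D1:**
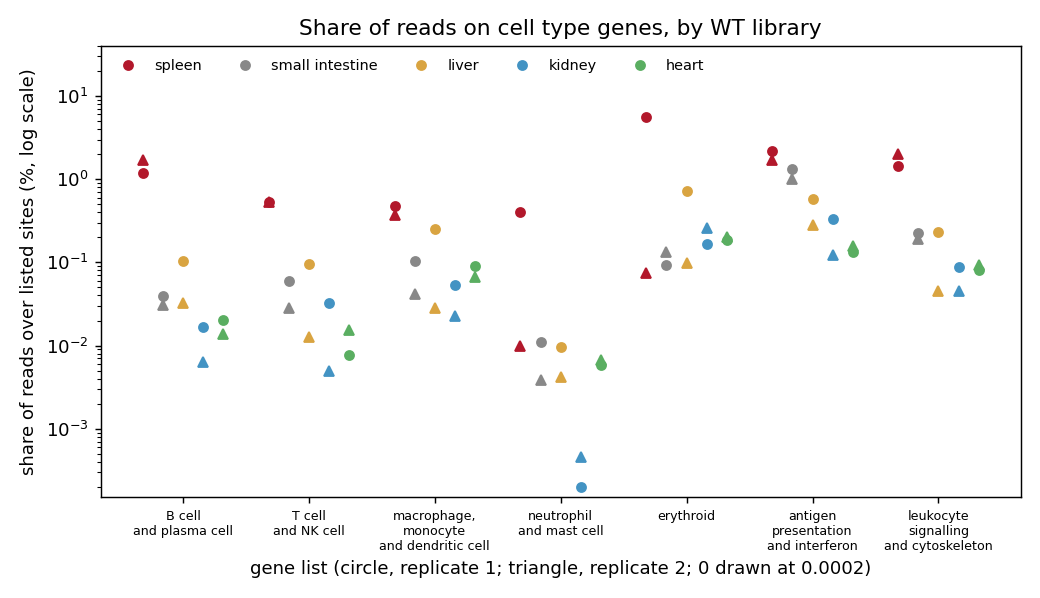
Share of the reads over listed sites that fell on each of 7 gene lists (vertical axis, percent, log scale), in the 10 WT libraries, circles for replicate 1 and triangles for replicate 2, with spleen in red. Both spleen libraries lie above the 8 others for every list but the erythroid and the neutrophil and mast cell lists, where replicate 1 alone is high (5.56% and 0.402%).

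The 2 spleen libraries also differed in how many sites stood above background. A level of at least 0.1 was seen at 30 common sites in spleen replicate 1 and at 248 in replicate 2, but at 5 in both. Of the 248, 232 had no unconverted read in replicate 1. Elsewhere 13 (kidney) to 70 (heart) common sites reached 0.1 in both libraries of a tissue. Most common sites were fully converted: 2552 of 3098 (82.4%) had no unconverted read in either spleen library. Across all 3098 sites, which share libraries and so give a description with no p, the levels of the 2 spleen libraries correlated at r = 0.12, against −0.0017 in liver, 0.32 in heart, 0.56 in small intestine and 0.78 in kidney. The list itself was chosen by level: each of the 32378 sites had been passed by the authors in at least 1 of the table's 20 libraries, and no passed value had under 20 reads, under 3 unconverted reads or a level under 0.1. A site could thus be listed through a single high library, which bears on each comparison below. The authors had passed 597 sites in spleen replicate 1 and 4360 in replicate 2, of which 4219 were passed in no other library of the series. Outside sites that met the criteria below in some WT tissue, the pooled level was 0.0550% and 0.463% in the spleen libraries, against 0.0646% to 0.915% in the other WT libraries. The KO spleen libraries stood at 0.0489% and 1.89%, the second above every WT library, and had 18 and 466 common sites at 0.1 or more. KO values are therefore given per library.

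**Figure D2:**
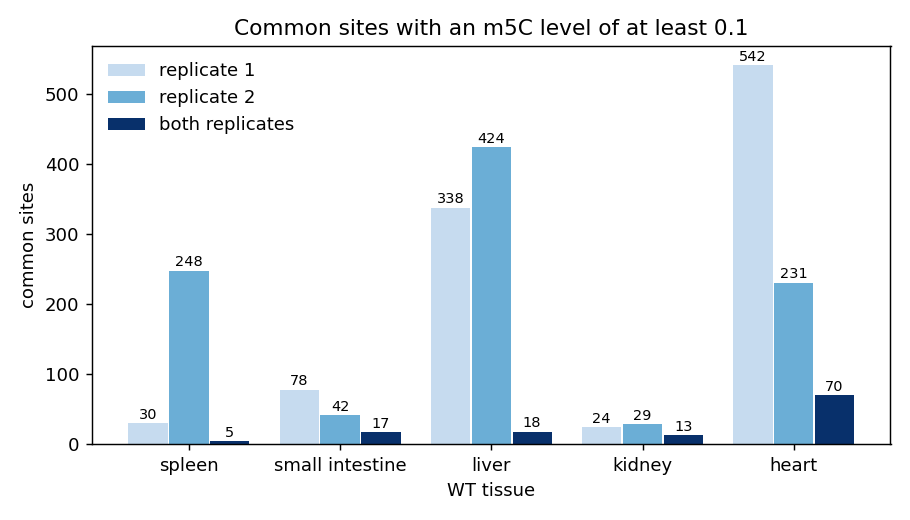
Number of the 3098 common sites with an m5C level of at least 0.1 (vertical axis) in replicate 1, in replicate 2 and in both, for each WT tissue, spleen first. In spleen the bar for both replicates stands at 5, beside 30 and 248 for the single libraries.

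For this reason sites were counted by criteria set after the study's methods: 20 or more reads, of which 2 or more unconverted, in each library of the tissue, and a level of 0.05 or more. The methods do not say how the level of 2 libraries is taken, and the mean of both was used here. In spleen 37 common sites in 32 genes met them (1.19%), against 43 in small intestine, 57 in liver, 54 in kidney and 179 in heart (5.78%). All but 1 of the 37 also met them in at least 1 other WT tissue, and 17 common sites met them in all 5. By tissue, 27 of the 37 met them in small intestine, 28 in liver, 26 in kidney and 30 in heart. The exception was a CNGGG site of Sbf1, a pseudophosphatase of the myotubularin family, with 2 of 52 and 14 of 163 unconverted reads in spleen (0.0385 and 0.0859), against 0 to 0.147 elsewhere, where small intestine had 11 of 75 reads and 1 of 50. In KO spleen 33 of the 37 had 20 reads in both libraries, 26 of those met the same criteria and none was at 0 in both. The mean levels of the 37 sites ran from 0.0542 to 0.325 in spleen, with a median of 0.0841. The median over the same sites was 0.109 in small intestine, 0.140 in liver, 0.0879 in kidney and 0.207 in heart. These sites were chosen by their spleen level, so the medians are a description.

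Rela, the p65 subunit of NF-κB, had one of the highest levels that both spleen libraries shared. Its site (chromosome 19, position 5647583, in the 3′ UTR of exon 11 of 11) was unconverted in 12 of 48 and 128 of 332 spleen reads, or 0.250 and 0.386, against 0.181 to 0.594 with a median of 0.253 in the 8 other libraries. The spleen values lay within the range of the other tissues, and KO spleen had 0.231 and 0.120. Ybx3, a cold-shock-domain protein that binds RNA, had 0.156 and 0.202 at position 131388170 of chromosome 6 (coding, exon 1), against 0.151 to 0.448 elsewhere. Both of these rested on fewer than 400 spleen reads per library.

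Ribosomal and housekeeping transcripts gave the most precise levels. Rpl34, a protein of the large ribosomal subunit, had 0.152 (2400 of 15785 reads) and 0.150 (5202 of 34673) in spleen at its coding site on chromosome 3, position 130729132. Small intestine had 0.126 and 0.155, liver 0.140 and 0.122, kidney 0.124 and 0.119, and heart 0.271 and 0.257. The spleen levels thus fell between the 2 small intestine libraries, above liver and kidney and below heart. Use1, a SNARE protein of traffic between the Golgi and the endoplasmic reticulum, met the criteria at 2 coding sites. Its exon 7 site had 0.134 and 0.154 in spleen, against 0.0724 to 0.157 in small intestine, liver and kidney and 0.482 and 0.446 in heart. At exon 1 it had 0.0541 and 0.0643 in spleen, above the 6 libraries of small intestine, liver and kidney (0.0184 to 0.0459) and below both of heart (0.0965 and 0.0895). Neither Rpl34 nor Use1 passed against heart in edgeR over the 1034 sites tested below (adjusted p = 1). Over the 221 of those that a KO library had passed, Rpl34 was lower than in heart (adjusted p = 0.042 in edgeR). That set favours sites high in heart.

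Not every site that met the criteria agreed between the libraries. Fahd2a had the highest mean level, 0.325, but stood at 2 of 22 reads (0.0909) and 14 of 25 reads (0.560). Ccdc107 had 0.174 and 0.0234, a ratio of 7.45 and the widest of the 37. Sec61a1, which forms the protein-conducting channel of the endoplasmic reticulum, had 0.104 and 0.146, against 0.112 to 0.452 elsewhere. Of the 37 sites, 22 were higher in spleen replicate 2 and 15 in replicate 1. Neighbouring cytosines share reads, so the 3 adjacent sites of Ppp6r1 (0.0976 to 0.111 and 0.0802 to 0.0904), the pair in Tapbp and the pair in Tpm3 are not independent.

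Sequence features, which the coverage rule had not used, marked a minority of the 37 sites, and none was tested. None was a CTCCA site, although 38 of the common sites (1.23%) were, and 7 (18.9%) were CNGGG sites, against 120 of all common sites (3.87%). The 4 letters CAGG, read from the measured cytosine on its own strand and counted after the windows had been seen, opened 11 of the 37 (29.7%) and 178 of all 3097 with sequence (5.75%). At least 14 of 21 bases were A in 4 windows (10.8%), against 9 in all (0.291%). Those 4 were Tmem50a, Rangap1 and both Tpm3 sites. By region 20 lay in coding sequence, 15 in a 3′ UTR, 1 in a 5′ UTR and 1 in a noncoding exon, against 2049, 928, 80 and 40 among the common sites. Within 200 nt of a stop codon lay 8 of 36 with a coding annotation (22.2%), against 25.1% of the common sites.

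Some windows were not unique, and reads of exact copies could be assigned to either place. Of the 37 windows, 27 occurred at 1 place on the assembled chromosomes. Rpl34's occurred at 11 places and Rpl23's at 2, the other being the listed pseudogene Gm9794. The A-rich windows of Tmem50a, Rangap1 and one Tpm3 site occurred at 1683, 2021 and 1760 places. At Tmem50a the spleen levels were 0.0636 and 0.216, against 0.0568 to 0.143 elsewhere.

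Each common site with at least 10 unconverted reads over the 10 libraries, 1034 in all, was tested for a difference between spleen and the mean of the 4 other tissues. The edgeR quasi-likelihood test with Benjamini-Hochberg adjustment called 1 site higher in spleen (0.0967% of those tested) and 0 lower, with 9 and 8 at an unadjusted p under 0.05. Limma called 0 in either direction, with 95 and 79 at that unadjusted level. The median log2 odds ratio of spleen to the others over all tested sites was −0.90. A tested site had to be high in some library to be listed, and 948 of the 1034 had been passed in a WT library, so these counts are not free of the levels compared. The one call was in Idh2, the mitochondrial NADP-dependent isocitrate dehydrogenase (chromosome 7, position 80115187, exon 1). It had 0 of 65 and 10 of 67 unconverted reads in spleen, a level of 0 and 0.149. In the other tissues 6 libraries were at 0 and the heart libraries had 5 of 15896 and 1 of 8105. The log2 odds ratio was 7.49 ± 1.66 (SE, adjusted p = 0.0063 in edgeR). The call rested on spleen replicate 2, without which the adjusted p in edgeR was 1, and it was also lost without heart (adjusted p = 1), kidney replicate 2 or heart replicate 1, with no filter on unconverted reads, with the spread between tissues as error, and in limma (adjusted p = 0.068). Of all 20 libraries the site had been passed in spleen replicate 2 alone. It was thus listed through the value that set it apart, and the call is a description. In this fit the spread of a site carried no weight of its own, since edgeR took it from a trend with read depth.

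All 9 sites on the higher side at that unadjusted level had no unconverted read in spleen replicate 1 and a level of 0.101 to 0.351 in replicate 2. All 9, Idh2 included, had been passed in that library and in no other, so their tests too are descriptions of sites listed for that value. Dgat1, which makes triglycerides, had 0 and 0.122 in spleen, against at most 0.000555 elsewhere (adjusted p = 0.48 in edgeR). Selenop, a plasma carrier of selenium, had 0 of 579 and 13 of 37 reads at its exon 3 site, against 0 in the 8 other libraries (adjusted p = 0.90 in edgeR). Asl, a urea cycle enzyme, had a level of 0 and 0.111 at its exon 12 site, against 0 of 1516 and 0 of 9619 reads in liver. It was called higher than liver in edgeR (adjusted p = 0.0125) and limma (adjusted p = 0.0192). The edgeR call was lost without spleen replicate 2 or liver replicate 2 (adjusted p = 1), and without kidney replicate 2, and this site too was listed through spleen replicate 2 alone. On the lower side the smallest p belonged to Rps14 exon 4 and Rps9 (adjusted p = 0.29 in edgeR), which are described with heart.

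Ranges that did not overlap were few. Both spleen levels lay above all 8 others at 2 of the 3098 sites (0.0646%) and below all 8 at 5 (0.161%). Above were Ccdc58, with 0.0167 and 0.132 in spleen, and Hcfc1r1, with 0.00610 and 0.173. All 8 other libraries were at 0 at these 2 sites, a single unconverted read carried replicate 1, and both were listed through spleen replicate 2 alone. Below were Gnptg, Tcn2, Cd81, Pgls and Slc38a10.

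Gnptg encodes a subunit of the enzyme that tags lysosomal proteins. Its coding site near the end of the last exon (chromosome 17, position 25234673) had 4 of 204 and 4 of 557 unconverted reads in spleen, or 0.0196 and 0.00718. Small intestine had 0.106 and 0.0714, liver 0.191 and 0.256, kidney 0.194 and 0.137, and heart 0.510 and 0.340. KO spleen had 0.0159 and 0. The log2 odds ratio to the mean of the others was −4.33 ± 2.93 (SE), which did not pass in edgeR (adjusted p = 1) or limma (adjusted p = 0.086). When edgeR was run over the 207 sites that met the criteria in a WT tissue, the adjusted p was 0.0098. That set was chosen partly by these levels, and most of it came from heart.

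Tcn2, the plasma carrier of vitamin B12, had 0.0571 and 0.0646 in spleen at its CNGGG site in the 3′ UTR, against 0.0770 to 0.239 elsewhere. Cd81, a tetraspanin of the B cell co-receptor, had 1 of 58 and 0 of 375 unconverted reads at its CNGGG site, against 0.0256 to 0.155. Pgls, an enzyme of the pentose phosphate pathway, had 0.0366 and 0.0145, against 0.0445 to 0.136, and Slc38a10, an amino acid transporter, 0 of 72 and 0 of 295 reads, against 0.00897 to 0.253. None of these 4 passed in edgeR over the 1034 sites (adjusted p = 1). In the set of 207 sites edgeR called 11 lower in spleen than the mean of the others (5.31%) and 0 higher, among them Rps9, Rps14, Gnptg, Rps21, Gsn, Rpl23, Idh3b, Ccdc107, Ensa and Cd81. In the same set 7 sites were lower than in liver (3.38%) and 93 lower than in heart (44.9%), and heart supplied 179 of the 208 sites that met the criteria.

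With each tissue taken in turn, edgeR and limma called 0 of 1034 sites in either direction against small intestine and kidney. With 2 libraries per tissue, a lack of calls does not show that levels were equal. At an unadjusted p under 0.05 edgeR had 3 higher and 1 lower for small intestine and 7 and 3 for kidney, and limma had 49 and 21, and 65 and 19. Against liver edgeR called the Asl site higher (0.0967%) and 0 lower, with 7 and 8 at the unadjusted level, and limma called 1 higher and 1 lower. Against heart edgeR called 1 site higher, again in Idh2, and 16 lower (1.55%). That Idh2 call was lost without spleen replicate 2 (adjusted p = 1), heart replicate 1 (adjusted p = 0.50) or heart replicate 2 (adjusted p = 0.092). The median log2 odds ratio over all tested sites was −1.76 against heart, −0.57 against liver, 0.23 against small intestine and 0.28 against kidney.

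Sites that a KO library of any tissue had passed, 221 of the 1034, would have been listed whatever their WT levels, and the fit was repeated on them after the data had been seen. In edgeR 0 of the 221 were called higher or lower in spleen than in the mean of the others, small intestine, liver or kidney. The counts at an unadjusted p under 0.05, higher and lower, were 1 and 26, 4 and 2, 1 and 18, and 2 and 12 in that order. Against heart 42 were lower (19%) and 0 higher (80 and 2 at the unadjusted level), and those 42 held 12 of the 16 lower calls. Heart KO libraries had passed 161 of the 221, so the set favours sites high in heart. Over the 86 sites passed in KO libraries alone, edgeR called 0 in either direction against the mean, with 1 higher and 1 lower at the unadjusted level.

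The 16 sites lower in spleen than in heart lay in 14 genes. At 14 of them both heart libraries stood above all 8 other WT libraries. That share was not counted over all tested sites, so it does not set the called sites apart. Among WT libraries, 13 of the 16 had been passed in heart alone, against 355 of the 1034 tested. A pass in heart requires a high heart level, so neither count is free of the levels compared. Cytosolic ribosomal protein genes held 6 of the 16, out of 9 tested sites of that list, against 16 of all 1034 tested (1.55%). The list's median log2 odds ratio against heart was −2.58, and that of all tested sites −1.76. The called ribosomal sites were read deeply, as at Rps14 exon 4 with 15508 and 54271 spleen reads. Median coverage of the common sites in the spleen libraries was 92 and 156. The part of read depth in these calls was not tested. Rps14, of the small subunit, was lower at 2 sites. At exon 4 it had 267 of 15508 and 1045 of 54271 unconverted reads in spleen, or 0.0172 and 0.0193. Heart had 0.110 and 0.102, and small intestine, liver and kidney 0.0167 to 0.0265. Its log2 odds ratio to heart was −2.68 ± 0.30 (SE, adjusted p = 1.49e-15 in edgeR). The exon 3 site had 0.0221 and 0.0253 in spleen, against 0.124 and 0.0919 in heart, and stood above the 6 libraries of small intestine, liver and kidney (0.0121 to 0.0188).

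The other 4 ribosomal sites were likewise lower in spleen than in heart. Rps21 had 0.0193 and 0.0199 in spleen, against 0.117 and 0.0966 in heart (edgeR adjusted p = 1.48e-12). Rps9 had 0.0321 and 0.0381 in spleen, against 0.198 and 0.195 in heart (edgeR adjusted p = 5.66e-08), with 0.0340 to 0.0644 in the 3 remaining tissues. Rpl23 had 0.0897 and 0.127 in spleen, against 0.428 and 0.386 in heart, and Rplp0, of the ribosomal stalk, 0.0189 and 0.0196, against 0.213 and 0.147. These 6 calls held in all 10 fits that left out 1 library and over the 221 sites. None of them held in limma, whose adjusted p ran from 0.16 (Rplp0) to 0.31 (Rps14 exon 3). Exact copies of the windows existed for Rps14 (4 and 3 places), Rps21 (2) and Rps9 (2).

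The remaining 10 belonged to no list, apart from Cd74, and are described singly. Idh3b, a subunit of the NAD-dependent isocitrate dehydrogenase, had 1 of 301 and 0 of 881 unconverted reads in spleen at exon 3, against 0.109 and 0.0827 in heart. That site passed in edgeR (log2 odds ratio −6.36 ± 0.96, SE, adjusted p = 1.15e-08), in limma (adjusted p = 0.030) and in every alternative run for it. At exon 9 Idh3b had 0.0332 and 0.00384, against 0.229 and 0.190. Atp5b, the beta subunit of ATP synthase, had 0.00786 and 0.0145, against 0.0965 and 0.0818. Sdhb, of complex II, had 0.0125 and 0.00755, against 0.179 and 0.143. Ndufb9, of complex I, had 0.0121 and 0, against 0.0877 and 0.159, and Cox7a2l, an assembly factor of respiratory supercomplexes, 0.00596 and 0.00977, against 0.0979 and 0.0943.

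Depth differed widely at some of these sites, as at Idh3b exon 3 with 301 and 881 reads in spleen, against 26155 and 21920 in heart. Asl at exon 13, Cd74, Ahcy and Ndufb9 had each been passed in 1 heart library and nowhere else, so they were listed through the value that set them apart and their calls are descriptions. Asl had 0 of 39 and 0 of 135 unconverted reads in spleen, against 0.101 and 0.0400 in heart. Cd74, the invariant chain of MHC class II, had 0 of 19993 and 4 of 8241 reads in spleen, against 16 of 129 and 0 of 548 in heart. Ahcy, which breaks down S-adenosylhomocysteine, had 0 of 121 and 0 of 265 in spleen, against levels of 0 and 0.101 in heart. At Cd74 and Ahcy the other heart library had no unconverted read. Of the 16 calls, 8 held in all 10 fits that left out a library (the 6 ribosomal sites, Atp5b and Idh3b exon 3), and 3 held in limma, Idh3b exon 3 and Cd74 among them. Without spleen replicate 2 calls including those at Ndufb9, Idh3b exon 9, Ahcy, Sdhb and Asl were lost, and 10 sites were called in all. Without heart replicate 1, 9 were.

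**Figure D3:**
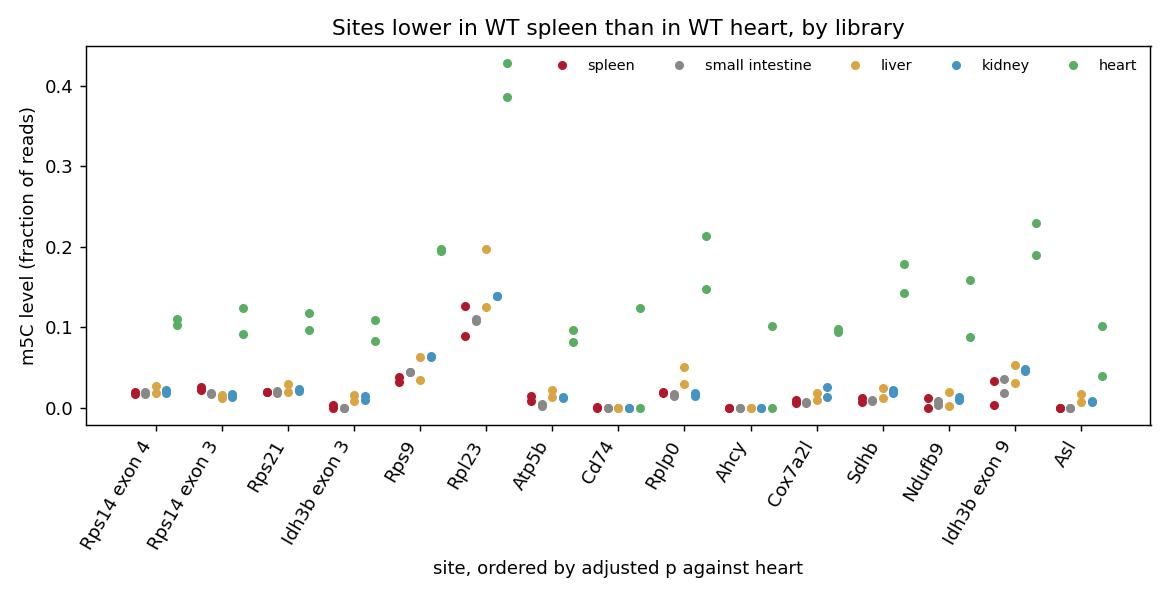
m5C level as a fraction of reads (vertical axis) at 15 of the 16 sites called lower in WT spleen than in WT heart, each dot a library, spleen in red at the left of each site and heart in green at the right. Both heart dots stand above both spleen dots except at Cd74 and Ahcy, where a single heart library is high (0.124 and 0.101).

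CTCCA sites, the class that Nsun6 acts on, were low in the common transcripts of spleen, as in those of small intestine and kidney. The mean level of the 38 CTCCA sites was 0.00565 and 0.0140 in spleen, against 0.00899 to 0.0620 in the 8 other libraries. Their mean was 0.00983 ± 0.00591 in spleen (SD, n = 2) and 0.0244 ± 0.0196 elsewhere (SD, n = 8), a difference of −0.0146 (exact two-sided permutation p = 0.22, adjusted p = 0.67 over 3 classes, 45 arrangements, 0.0444 being the smallest p they allow). The 120 CNGGG sites averaged 0.0123 and 0.0209 in spleen, against 0.0135 to 0.0759, a difference of −0.0148 (exact permutation p = 0.49, adjusted p = 0.67). The remaining 2939 sites averaged 0.00267 and 0.0142, against 0.00272 to 0.0323, a difference of −0.00457 (exact permutation p = 0.67, adjusted p = 0.67). No class passed in this test, and of the spleen libraries replicate 2 was the higher in each class. The 8 other libraries come from different tissues, with 2 libraries each, and are not exchangeable. Their spread includes differences between tissues: CTCCA means were 0.0620 and 0.0457 in heart, against 0.00899 to 0.0279 in the rest. These p-values thus do not measure library spread alone, and the test cannot decide whether spleen differs from any one tissue.

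**Figure D4:**
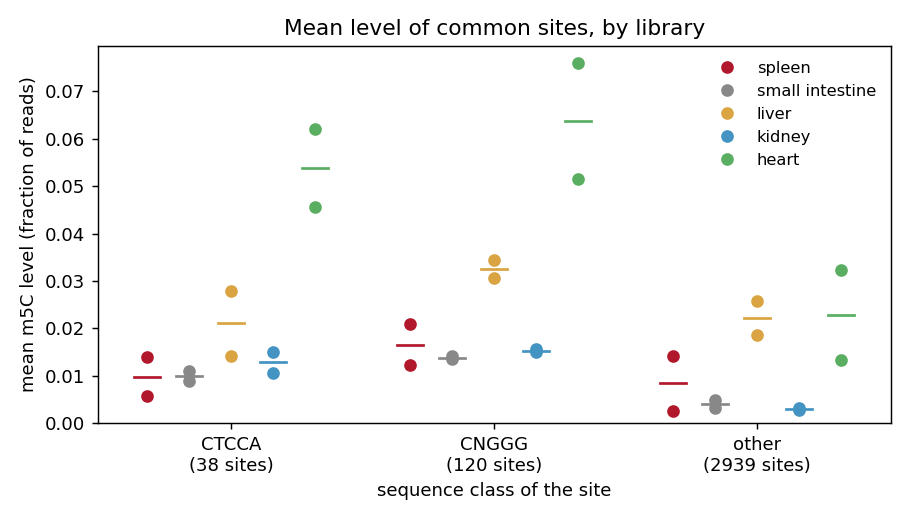
Mean m5C level of the common sites of each sequence class (vertical axis, fraction of reads) in each WT library (dots) with the tissue mean (bar), spleen in red at the left. Spleen lies near small intestine and kidney in the CTCCA and CNGGG classes and below both heart libraries.

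At single CTCCA sites the spleen level was low, and some sites had no unconverted read in a spleen library. In Selenok, a selenoprotein of the endoplasmic reticulum that immune cells use in calcium signalling, 25 of 605 and 39 of 1447 reads were unconverted in spleen, a level of 0.0413 and 0.0270. KO spleen had 0 of 820 and 0 of 455, which allows a level of up to 0.00235. Small intestine had 0.0106 and 0.0223, liver 0.0177 and 0.0733, kidney 0.0380 and 0.0340, and heart 0.141 and 0.140. The Selenok window occurred at 8 places, 2 of them the listed pseudogenes Selenok-ps5 and Selenok-ps8, so that reads may be shared. H2-Aa, the alpha chain of the MHC class II molecule I-A, was read deeply in spleen. It had 26 of 2150 and 33 of 4464 unconverted reads, a level of 0.0121 and 0.00739, against 0.0218 and 0.00995 in small intestine, 0.0587 and 0.107 in liver, 0.0217 and 0 in kidney and 0.0748 and 0 in heart. In KO spleen 0 of 18117 reads were unconverted in all, which allows up to 0.000166. Neither site was called against the mean of the other tissues in edgeR (adjusted p = 1). The other CTCCA sites that met the criteria in some WT tissue were at 0.0202 and 0 in spleen for Hdlbp, 0.0145 and 0 for Phyh, 0.0149 and 0.0374 for 3110040N11Rik and 0 of 25 and 0 of 49 reads for Tmem250-ps.

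Immune and blood cell genes were few among the common sites. The 7 lists of immune and blood cell genes had 32 common sites in 20 genes, of which 23 had no unconverted read in either spleen library, against 2552 of all 3098. The exceptions that met the criteria were both in Tapbp, which loads peptides on MHC class I. Its 3′ UTR sites 6 bases apart had 0.0379 and 0.109, and 0.0424 and 0.127, against 0 to 0.519 elsewhere. The window at position 33928697 occurred at 33 places and that at 33928691 at 1, so reads may come from elsewhere. Of the 9 tested sites of antigen presentation genes and leukocyte signalling genes, only that of Cd74, listed through heart replicate 1, passed against any tissue. Lyz2, a lysozyme of macrophages, had 0.0126 and 0.0649 in spleen, against 0 to 0.152. Coro1a, an actin-binding protein of leukocytes, had 0 of 2326 and 4 of 13708 unconverted reads, against 0 to 0.233 elsewhere. Hmgb2, a chromatin protein of dividing cells, had 0 of 5001 and 1 of 4099. Among the erythroid genes Fech, the last enzyme of haem synthesis, had 0 of 1121 and 17 of 100 reads. The methyltransferase Nsun2 had 0 of 201 and 0 of 893 unconverted reads at its own 3′ UTR site, and Nop2, which methylates ribosomal RNA, 0.0274 and 0.

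The 906 spleen-only sites lay partly outside exons. Coding sequence held 377 of them (41.6%), introns 228 (25.2%), 3′ UTRs 174 (19.2%), noncoding exons 78 (8.61%), intergenic sequence 26 and 5′ UTRs 23, against 66.1% coding and 0.0323% intronic among the common sites. CTCCA sites were 7 and CNGGG sites 24. At 389 sites both spleen libraries had no unconverted read. The 64 sites at a level of 0.1 or more in replicate 1 and the 440 in replicate 2, 7 of them in both, were the sites that the authors had passed in those libraries, so these counts restate what listed them. The remaining 409 were listed through libraries other than WT spleen.

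Immune and blood cell genes supplied 76 of the 906 spleen-only sites, in 51 genes, against 32 of the 3098 common sites. Their share over all listed sites was not counted. The rule for spleen-only sites favours genes read mainly in spleen, so these counts only describe the set. B cell genes had 20 sites in 11 genes, among them Pax5 and Ebf1, which set B cell identity, and Cd22, Cd37 and Ms4a1 of the B cell surface. T cell genes had 11 sites in 10 genes, among them Cd4, Cd5 and Cd8a. Leukocyte signalling and cytoskeleton genes had 28 in 19, with Ptprc, Rac2 and Ikzf1. Of the 76 sites, 39 had no unconverted read in spleen, against 389 of all 906, 4 reached 0.1 in replicate 1, 29 in replicate 2 and 1 in both. Ciita, the master regulator of MHC class II genes, had no unconverted read in either library, of 252 in replicate 2. Syk, a kinase of the B cell receptor, had 0 of 199 and 0 of 426, Spib, a B cell transcription factor, 0 of 267 and 0 of 345. Cd8b1, a chain of the CD8 co-receptor, had low levels in both libraries, 0.0433 and 0.0354, with 0.0307 and 0.737 in KO spleen. Coverage of some of these differed widely between the libraries, as in Ighd (1661 and 24 reads) and the proliferation marker Mki67 (1125 and 91).

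The criteria were met at 17 spleen-only sites (1.88%), with a median level of 0.134 and a range of 0.0643 to 0.979. These sites are named with their values already seen. Introns, named by the annotated gene they lie in, held 9 of them, coding sequence 3, 3′ UTRs 3 and intergenic sequence 2. In KO spleen 10 of the 17 had 20 reads in both libraries, 6 of those met the criteria and 1 was at 0 in both, Ighg3.

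Ighg3, the constant region of the IgG3 heavy chain, was the spleen-only CTCCA site that met the criteria. At chromosome 12, position 113359715 (coding, exon 4 of 6), 6 of 38 and 7 of 42 reads were unconverted in WT spleen, or 0.158 (95% Clopper-Pearson interval 0.0602 to 0.313) and 0.167 (0.0697 to 0.314). In KO spleen 0 of 207 and 0 of 47 were, which allows a level of up to 0.0118 over the 254 reads. No other WT tissue had a listed value there. The intervals and limits cover counting error only: no molecular identifiers are described that would tell PCR copies from separate molecules.

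Nisch had the highest level, in the 3′ UTR 19 bases past a stop codon. It stood at 23 of 24 and 92 of 92 reads in WT spleen, and at 64 of 71 and 37 of 37 in KO spleen. Its site had 11 to 19 reads in 4 other libraries, with levels of 0.947 to 1. A site between genes on chromosome 4 (position 143981399) had 0.938 and 0.576, with 0.756 and 0.958 in KO spleen, and an intronic site of Lgals8 had 0.900 and 0.471, with 0.839 and 1. The chromosome 4 window occurred at 458 places in the genome and that of Lgals8 at 2. An intergenic CNGGG site on chromosome 11 (position 86815883) was the deepest of the 17, with 88 of 905 and 209 of 1590 reads unconverted, or 0.0972 and 0.131, and 0.113 and 0.163 in KO spleen. Its window occurred at 17 places.

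Of the 17 sites, the 1 that the table assigns to a gene of the 7 immune and blood cell lists was Ighg3. Other sites lay in introns, where the annotated gene need not be the source of the reads. That in Ifi30, a thiol reductase of antigen processing, had 0.174 and 0.222, and Samhd1, an enzyme that depletes deoxynucleotides, 3 of 30 and 9 of 86 reads. B2m, the light chain of MHC class I, had 0.292 and 0.0948, and Apobec3, a cytidine deaminase that restricts retroviruses, 0.0870 and 0.0417. The windows of Samhd1, Apobec3, B2m and Actr3 occurred at 5237, 4872, 1097 and 1052 places. Of all 17 windows 9 were unique. Among the sites in annotated exons, Fcho1 had 0.0577 and 0.210, with 0.110 and 0.169 in KO spleen. Senp1, a SUMO protease, had 0.0800 and 0.145, and Ccne1, a cyclin that starts DNA replication, 0.0145 and 0.204. CAGG opened 5 of the 17 (29.4%), against 39 of the 906 (4.30%), and CNGGG 4 (23.5%), against 2.65%.

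**Figure D5:**
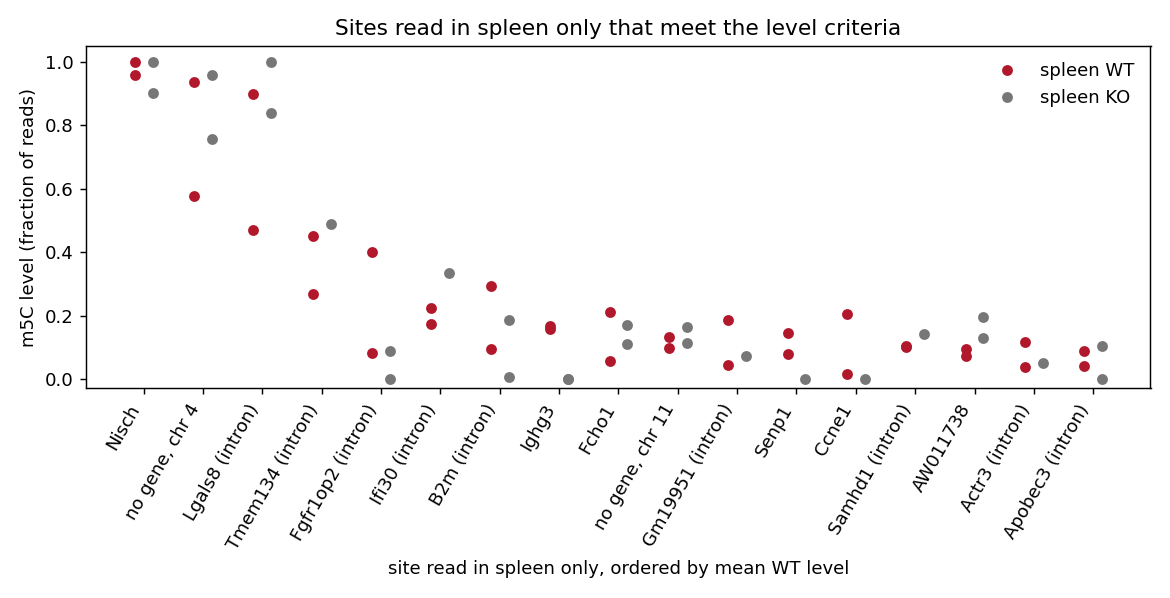
m5C level as a fraction of reads (vertical axis) at the 17 spleen-only sites that met the criteria, ordered by mean WT level, with WT spleen in red and KO spleen in grey, each dot a library with at least 20 reads. Nisch stands near 1 in WT and KO, and Ighg3 has 0.158 and 0.167 in WT with both KO libraries at 0.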

How the data were processed

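mRNA bisulfite libraries of 5 WT tissues and of KO spleen were used. Per the methods, the authors captured mRNA, converted it with a bisulfite kit, and mapped strand-specific reads to the mouse genome (mm10) with the RNA-m5C pipeline. The table deposited by the authors holds, per cytosine and library, coverage and unconverted reads as counts, and their ratio as a fraction (the m5C level). It also flags whether the authors passed a site in a library. Every listed site is flagged in at least 1 library. The flags were counted, and chose the sites of 2 alternatives. Another 60 columns of per-library values are not used here.

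Sites were taken by coverage of at least 20. edgeR 4.0.16 (quasi-likelihood, R 4.3.3) fitted unconverted and converted counts with an intercept per library and a methylation term per tissue, over 1034 common sites with at least 10 unconverted reads in all, and Benjamini-Hochberg adjustment covered all of them, with calls at an adjusted p below 0.05. Its prior degrees of freedom were infinite, so each site's spread came from a trend with read depth and not from its own counts. An SE was derived from the fold and the test statistic. limma 3.58.1 on logit levels with 0.5 added to each count was an alternative, as were other coverage limits, filters, site sets and leaving out libraries or tissues. The scripts were tested on simulated data with 200 changed sites. Class means were compared by an exact permutation test over libraries (scipy 1.17.1), which treats libraries of different tissues as exchangeable.

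Named sites were, for each direction against the mean of the others, the 10 of smallest unadjusted p. They included up to 8 in each direction whose spleen levels lay outside all 8 others, and all CTCCA sites meeting the criteria. To these came the 8 highest common levels in spleen and the 15 highest spleen-only levels meeting the criteria. Up to 4 genes of each list with the most reads, and genes the study names, were also taken. Remaining sites that met the criteria in spleen or were called against a single tissue were added after their values were seen. Members and lists were chosen with earlier results of these data known. One called site is not reported here. No pair of libraries held the same levels. Regions, exons and the genes of intronic sites, for which the table gives no gene, came from GENCODE M21.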

Additional observations from a re-analysis of the deposited data

How the results depend on the processing

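Most comparisons rest on few calls, so small shifts move them. Against the mean of the other tissues, the 1 higher call became 0 with limma, without the filter on unconverted reads, in the set of sites meeting the criteria, with 2 groups and the spread between tissues as error, and over sites passed in KO libraries alone or in any KO library, the last chosen after seeing the data. Without heart it stayed at 1, but the site called was Asl at exon 12 in place of Idh2. It became 2 without small intestine or without liver. The 0 lower calls became 11 in the criteria set, 2 at coverage of at least 50, 1 without small intestine and 3 without liver. For small intestine the criteria set gave 1 higher. For liver the 1 higher became 0 with no filter and over sites passed in any KO library, and the 0 lower became 1 in limma and 7 in the criteria set. For kidney the criteria set gave 1 lower. For heart the 1 higher became 14 in limma and 0 in the criteria set and over sites passed in any KO library, and the 16 lower became 38 in limma, 10 with no filter, 93 in the criteria set and 42 over sites passed in any KO library. The cause was not tested. Of the 37 common sites meeting the criteria, 15 remained at coverage of at least 50 and 11 at a mean level of 0.1. Of the 17 spleen-only sites, 2 remained at coverage of at least 50 and 10 with 3 unconverted reads, and 9 had under 10 reads in every other library.

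Leaving out each library in turn gave 0 to 4 sites higher and 0 to 2 lower against the mean, 0 to 2 higher than small intestine, 0 to 3 higher and 0 to 2 lower than liver and likewise than kidney, and 0 to 3 higher and 9 to 19 lower than heart. The difference in mean level of sites of neither class ran from −0.0103 to 0.0012, the sign turning without spleen replicate 1. Sites with spleen above all others numbered 2 to 260 (260 without spleen replicate 1), and below 6 to 20; this last alternative was chosen after seeing the data.

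Whether replicate numbers pair the libraries is not known. Over 10 pairs of tissues the same-numbered deviations correlated at −0.15 to 0.13. This cannot decide it, since a site could be listed through a single high library. With the number as a replicate block, 3 sites were higher than the mean of the others, 3 than liver, 3 than kidney and 1 than heart, and 15 were lower than heart. At 20 reads a site with no unconverted read may still carry m5C, so levels of 0 at shallow sites are limits of detection.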

Other observations

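A further 68 sites met the criteria in spleen and were read in some libraries of the other tissues but not in all, and so belong to neither set above. Csf1r, the receptor through which macrophages receive CSF1, had a CTCCA site in exon 18 with 46 of 113 and 72 of 223 unconverted reads in WT spleen, a level of 0.407 and 0.323. KO spleen had 0 of 188 and 0 of 235, which allows up to 0.00709. Small intestine had 0.300 and 0.200, liver 0.332 and 0.324, kidney 0.0714 and 0.220, and heart 0.450 and 0.383, on 15 to 208 reads. The spleen values lay within the range of the others. Septin1, a filament-forming GTPase, had a CNGGG site in its 3′ UTR with 0.369 and 0.490 in spleen and 0.368 and 0.294 in KO spleen, against 0 to 0.385 on 10 to 45 reads in small intestine, liver and kidney and no listed value in heart. Znrf1, a ubiquitin ligase, had 0.761 and 0.579 in its 3′ UTR, against 0.389 to 1. Srsf6, a splicing factor, had 0.262 and 0.564, against 0.240 to 0.417. Except for Csf1r, these were named after their values were seen, and none was tested.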
